A study of Mus musculus with 4 samples.

Results

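The 10 genes described here encode enzymes that methylate lysine 4 of histone H3 (H3K4) and subunits that travel with some of them. They form a list by function, with no measured level in its rule: the methyltransferases Kmt2c (protein Mll3), Kmt2d (Mll4), Kmt2a, Kmt2b, Setd1a and Setd1b, and the partners Kdm6a, Ncoa6, Paxip1 and Pagr1a. All 10 were found among the 32285 genes of the matrices, and 9 reached 20 counts per 1000000 unique molecular identifiers (CPM, UMIs) in at least 1 library. The study took bone marrow cells of mice 10 weeks after transplantation, sorted as CD45.2+, lineage negative, Sca1+ and Kit+, a gate known as LSK that encloses blood stem cells and early progenitors. Single-cell 3′ RNA and 6 surface antibodies were read in 4 libraries. They are titled control, Mll3 deleted, Mll4 deleted and Mll3/4 deleted, 1 library for each genotype, the last with both genes labelled as deleted. All 4 groups share the sort and the time after transplantation. The deleted exons, the driver of the deletion and the number of animals behind a library are not given in the sources used here.

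Mammals hold 6 enzymes of this kind, built on a shared core of Wdr5, Rbbp5, Ash2l and Dpy30 in assemblies called COMPASS. Mll3 and Mll4 place monomethyl marks mainly at enhancers, in complexes that also hold Kdm6a (an H3K27 demethylase also called UTX), Ncoa6 (a nuclear receptor coactivator), Paxip1 and Pagr1a. Kmt2a and Kmt2b act at CpG-rich promoters and some enhancers with menin (the product of Men1), Setd1a and Setd1b supply most promoter trimethylation, and Kmt2a is known for keeping stem cell genes such as the Hox cluster active in blood. The question put to the files was whether the remaining family members or partners stood higher where Mll3, Mll4 or both were labelled as deleted.

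No genotype has a replicate library, so no test was run, and the spread between animals behind every difference below is unknown. For each gene the UMIs of all kept cells were added up and scaled to CPM, with intervals at the 95% level that cover counting error only. A log2 ratio was called higher or lower past a fold of 1.5, which is 0.58 on the log2 scale, where either library reached 20 CPM. In such sums, fewer cells of a type and less RNA per cell cannot be told apart. Counts near the 3′ end of transcripts do not scale with gene length, but priming efficiency differs between genes, so levels are compared between libraries and not between genes.

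The libraries differ in the cells they hold. After filtering they had 4748 to 7274 cells, totals of 50792614 to 120700343 UMIs and medians of 8920 to 21400 UMIs per cell. Cells were placed in groups by fixed marker genes. The group with stem cell (HSC) markers held 66.4% of the control (exact Clopper-Pearson interval 65.3 to 67.5) and 67.5% of the Mll3-labelled library (66.3 to 68.6). It held 20.3% of the Mll4-labelled library (19.2 to 21.5), where the granulocyte-monocyte group held 37.5% (36.2 to 38.9). In the Mll3/4-labelled library 98.7% of cells (98.3 to 99.0) fell in the B-lineage group. Its summed B-lineage markers reached 14616 CPM against 233 CPM in the control, with 13 and 11 of the 14 markers at 1 CPM or more. Cd34, a progenitor gene, stood at 5.18 CPM against 332. Kit and Ly6a (the gene of Sca1) were present in all 4 libraries, at 215 to 362 and 93.4 to 255 CPM. The Mll4-labelled library also held 345 cells of the mast-basophil group and 203 of the macrophage group, with summed markers of 1667 and 593 CPM against 23.9 and 23.9 CPM in the control. Of the 9 mast-basophil markers 8 reached 1 CPM there and 4 in the control, where Tpsb2 and Tpsab1 were at 0 (a count of 0 allows up to 3 UMIs), and of the 9 macrophage markers 9 and 5 did. Each whole-library value below therefore mixes genotype with cell make-up, and the part of the make-up in it was not tested. The 6 pairs of libraries shared 9 to 22 cell barcodes, at most 0.350% of the smaller library.

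The genes lie on 6 chromosomes, with 3 each on chromosomes 5 and 7 (GENCODE release 21, GRCm38). Kmt2c spans chr5:25271798-25498783, Kmt2d chr15:98831669-98871204 and Kmt2a chr9:44803355-44881296, all on the minus strand. The promoter windows of Kmt2c and Kmt2a are shown because these were the members whose levels fell together between cell kinds in the control, as described further on. Each is the 250 bases before the transcript start from RefSeq on GRCm38.p6, minus strand, chr5:25498784-25499033 and chr9:44881290-44881539, read 5′ to 3′ with CG dinucleotides in capitals.
Kmt2c: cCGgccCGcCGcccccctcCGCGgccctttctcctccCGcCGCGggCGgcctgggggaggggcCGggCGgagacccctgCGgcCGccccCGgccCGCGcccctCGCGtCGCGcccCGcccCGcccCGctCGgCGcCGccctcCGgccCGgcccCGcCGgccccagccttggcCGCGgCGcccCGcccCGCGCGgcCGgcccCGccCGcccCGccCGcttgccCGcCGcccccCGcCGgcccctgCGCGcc
Kmt2a: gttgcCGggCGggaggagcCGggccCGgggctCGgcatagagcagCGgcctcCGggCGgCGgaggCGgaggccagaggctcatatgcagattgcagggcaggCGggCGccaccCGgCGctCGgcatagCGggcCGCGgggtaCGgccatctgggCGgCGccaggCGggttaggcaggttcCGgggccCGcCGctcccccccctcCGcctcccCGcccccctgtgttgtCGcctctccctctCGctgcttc
The Kmt2c window held 48 CG dinucleotides and the Kmt2a window 29, against a median of 6 over 32851 windows of the same length. As many as in Kmt2c were found in 0.186% of those windows, and as many as in Kmt2a in 6.78%. Of the 8 members matched in the promoter table, Kmt2d held 26, Setd1a 25, Paxip1 22, Kdm6a 15, Pagr1a 8 and Ncoa6 1, and Ncoa6 alone held the letters TATAAA on either strand, found in 12.4% of all windows. Kmt2b and Setd1b were not matched. CCAAT, on either strand, was in 0 of the 8 and in 33.8% of all windows. C and G together made up 91.6% of the bases in the Kmt2c window and 76.8% in the Kmt2a window. These are counts of letters and say nothing of which factor binds.

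Kmt2c was the gene that moved. It stood at 68.9 CPM in the control (interval 67.4 to 70.4), 35.3 CPM in the Mll3-labelled library (34.2 to 36.5), 61.3 CPM in the Mll4-labelled library (59.9 to 62.7) and 42.3 CPM in the Mll3/4-labelled library (40.5 to 44.1). Both libraries with an Mll3 label were lower than the control by more than the fold. So were 3.48% of all genes with the Mll3 label alone and 21.0% with both labels. With both labels 98.7% of cells were in the B-lineage group, and the part of that make-up in the value was not tested. The log2 ratio of Kmt2c to the control was -0.96 (-1.02 to -0.91) with the Mll3 label alone and -0.70 (-0.77 to -0.64) with both labels. Kmt2c thus fell by 48.7% and 38.6%, and its transcripts were still counted in both.

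Kmt2d did not separate the labels. It stood at 24.6 CPM in the control, 21.6 CPM in the Mll3-labelled, 22.6 CPM in the Mll4-labelled and 25.4 CPM in the Mll3/4-labelled library. The library with both labels was the highest of the 4, with a log2 ratio to the control of 0.05 (-0.05 to 0.14), and the Mll4-labelled library differed by -0.12 (-0.20 to -0.05), a value that turned to 0.30 when each cell had equal weight. A count at the 3′ end checks a deletion only where the deleted exons change that end or the transcript's stability. Since the exons are not given, these values check nothing about the Mll4 label, and libraries are called here by their label, as in Mll4-labelled.

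**Figure D1:**
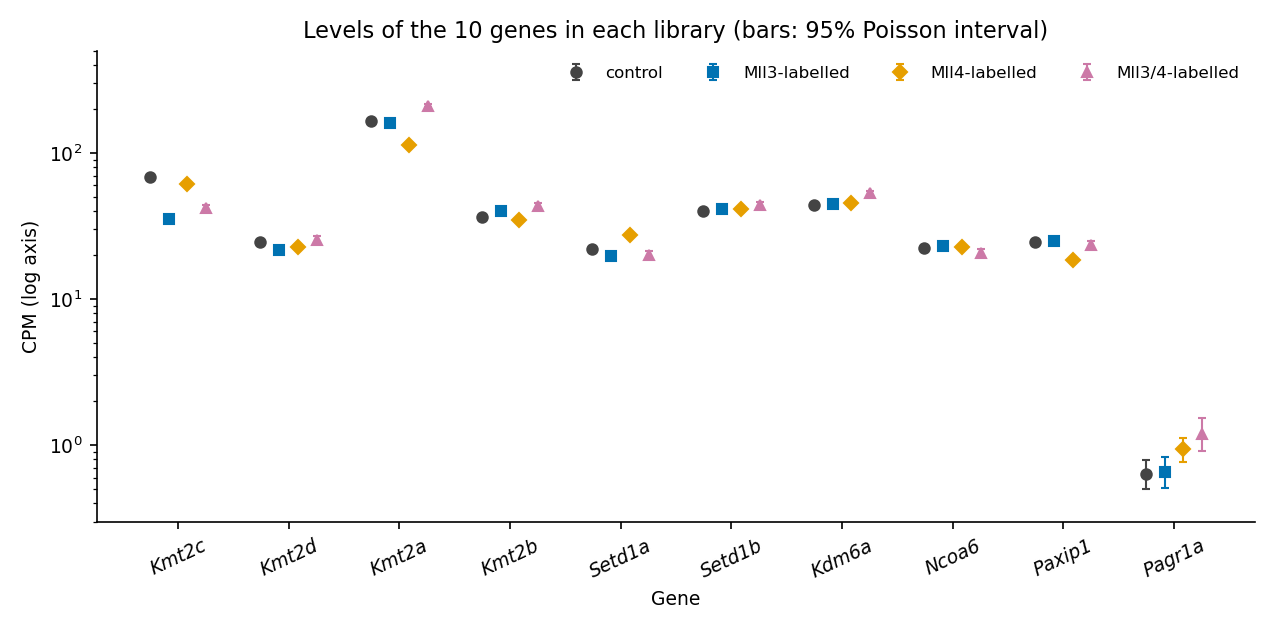
Levels of the 10 genes in CPM (log axis) in each of the 4 libraries, with 95% Poisson intervals that cover counting error only. Kmt2c is low with the Mll3 label alone (35.3) and with both labels (42.3) against 68.9 in the control, Kmt2d lies between 21.6 and 25.4 in all 4, and Kmt2a is lowest in the Mll4-labelled library (114) and highest in the Mll3/4-labelled library (210.4).

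Among the methyltransferases that were not labelled as deleted, Kmt2a varied most. Kmt2a stood at 165 CPM in the control, 161 CPM in the Mll3-labelled, 114 CPM in the Mll4-labelled and 210.4 CPM in the Mll3/4-labelled library. The Mll4-labelled library was lowest and the Mll3/4-labelled library highest, with log2 ratios to the control of -0.54 (-0.57 to -0.51) and 0.35 (0.31 to 0.38), each short of the fold called. Kmt2b, the closest relative of Kmt2a, stood at 36.2, 40.0, 34.9 and 43.6 CPM in the same order of libraries, a span of -0.05 to 0.27 in log2 ratio. Setd1a stood at 22.1, 19.7, 27.4 and 20 CPM. Its highest level was in the Mll4-labelled library, with a log2 ratio of 0.31 (0.24 to 0.39). Setd1b stood at 39.7, 41.2, 41.0 and 44.1 CPM, and in these values no library differed from the control by more than 0.15 in log2 ratio. Over the alternative settings its ratio ran from -0.001 to 0.29 with the Mll4 label and from 0.09 to 0.26 with both labels.

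Summed, Kmt2a, Kmt2b, Setd1a and Setd1b gave 263 CPM in the control, 262 CPM in the Mll3-labelled, 217 CPM in the Mll4-labelled and 318 CPM in the Mll3/4-labelled library. Such a sum is weighted by how well each gene is primed, so it is not a total of the family's transcripts. Kmt2a carries most of the UMIs in it. Without Kmt2a the other 3 summed to 98.03, 101, 103 and 108 CPM in the same order, so most of the spread between libraries in the larger sum lay in Kmt2a. All 6 methyltransferases together gave 357, 319, 301 and 386 CPM.

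The partners of Mll3 and Mll4 that were above the minimum stayed within the fold of the control in each whole library. Kdm6a stood at 43.8 CPM in the control, 44.6 CPM in the Mll3-labelled, 45.6 CPM in the Mll4-labelled and 52.9 CPM in the Mll3/4-labelled library, where the log2 ratio was 0.27 (0.20 to 0.34). Ncoa6 stood at 22.4, 22.9, 22.8 and 20.6 CPM in the same order, between -0.12 and 0.03 in log2 ratio. Over the alternative settings the Mll4-labelled ratio ran from 0.0008 to 0.40 for Kdm6a and from -0.02 to 0.30 for Ncoa6. Paxip1, which encodes the BRCT-domain protein PTIP, stood at 24.5, 25.1, 18.6 and 23.5 CPM. It was lowest in the Mll4-labelled library, at -0.39 (-0.47 to -0.31). Pagr1a, whose product binds PTIP, was near the limit of detection with 61 to 113 UMIs per library, or 0.637, 0.652, 0.936 and 1.20 CPM. It shares its strand and part of its span with Pagr1b and Gm42742, so its counts are uncertain, and it entered no count of members.

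Counted over the 9 members above the minimum, 0 were higher in the Mll3-labelled library against the control and 1, Kmt2c, was lower. Over all 6322 genes that entered this comparison, 2.37% were higher and 3.48% lower. In the Mll4-labelled library 0 members were higher and 0 lower, where 13.1% and 14.6% of 6541 genes were. In the Mll3/4-labelled library 0 were higher and 1, again Kmt2c, was lower, where 14.9% and 21.0% of 6683 genes were. The 3 comparisons share the control library. The median log2 ratio of the members was 0.02, -0.05 and 0.05 in the 3 libraries, beside 0.11, -0.12 and -0.09 for all genes. No family member or partner passed the fold upward in a whole library.

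**Figure D2:**
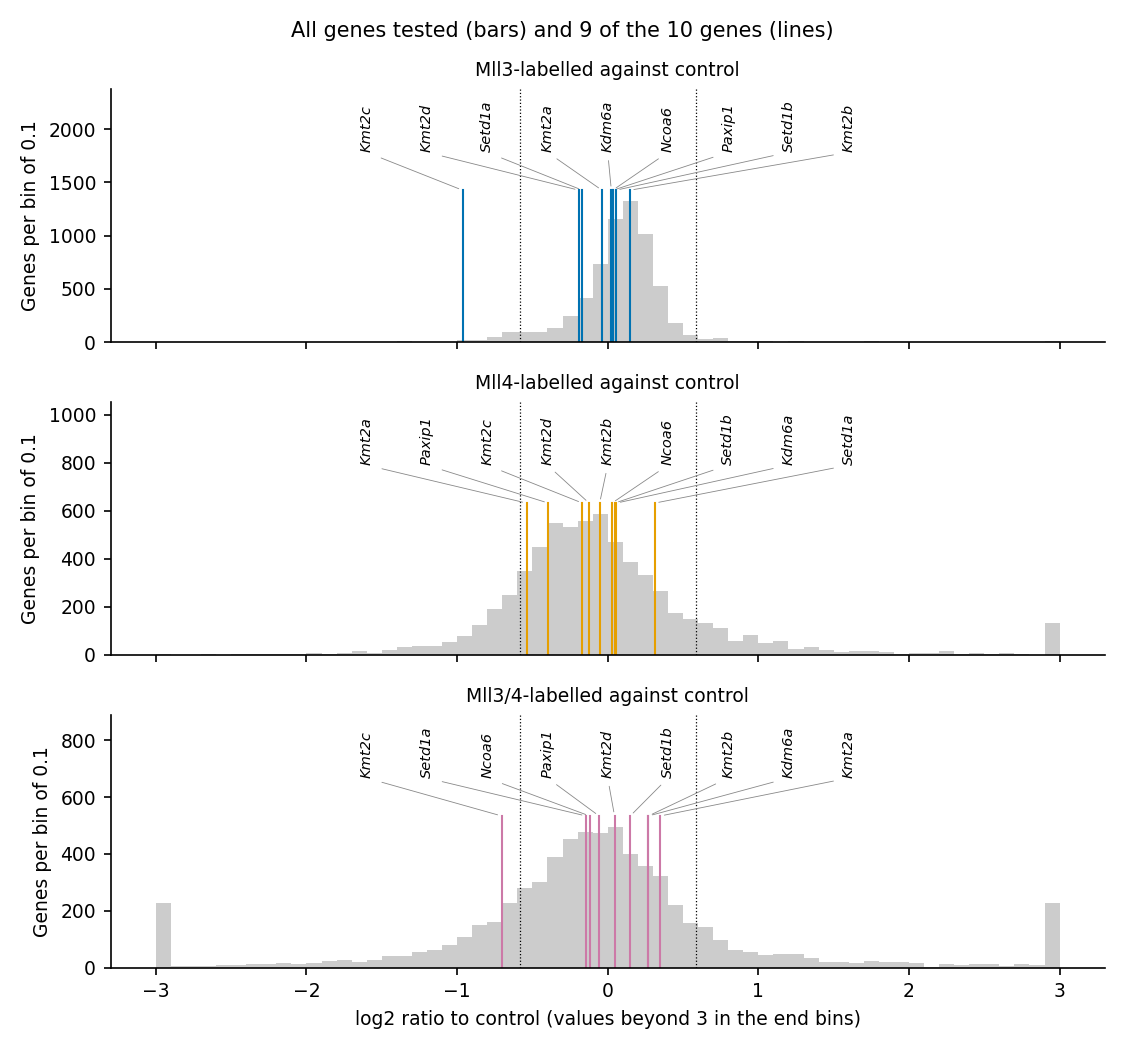
Log2 ratio to the control (horizontal axis) and number of genes per bin of 0.1 (vertical axis) for every gene that reached 20 CPM in either library, with 9 members as lines and the fold of 1.5 dotted. Kmt2c lies below the lower line with the Mll3 label alone (-0.96) and with both labels (-0.70), and every other member lies between the lines.

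The Mll3/4-labelled library was also set against the Mll3-labelled one. They differ by the Mll4 label and in make-up, whose part was not tested: 98.7% and 2.77% of cells were in the B-lineage group. Here 0 members were higher and 0 lower, with 15.3% of 6821 genes higher and 27.5% lower. Kmt2a had the largest log2 ratio, 0.39 (0.35 to 0.42), followed by Kmt2c at 0.26, Kdm6a at 0.25 and Kmt2d at 0.24. With median-of-ratios scaling, which moved the median of all genes in this comparison by 0.20, Kmt2a reached 0.59 and was called higher.

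Cells of 1 kind were compared next, because the libraries differ in make-up. A cell entered a marker group when at least 3 markers of its list were seen among 3000 UMIs drawn from it, and more than of any other list. The HSC-marker group is broad, since it held most control cells. In the Mll3-labelled library Kmt2c was the 1 member lower in each of the 3 groups that had at least 50 cells in both libraries. It fell from 76.6 to 38.9 CPM in the HSC-marker group (log2 ratio -0.98, -1.05 to -0.91), from 50.3 to 26.3 CPM in the granulocyte-monocyte group (-0.93, -1.24 to -0.64) and from 60.0 to 34.5 CPM in the lymphoid-primed group (-0.80, -0.99 to -0.61). The shares of all genes lower in these groups were 3.69%, 3.81% and 3.45%. The ratio was thus about as large in each kind of cell as in the whole library, and 0 members were higher in any of the 3, where 2.50%, 3.33% and 2.64% of genes were.

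In the Mll4-labelled library 0 members were called in either direction in the HSC-marker, granulocyte-monocyte and lymphoid-primed groups, where 14.5%, 28.6% and 21.4% of genes were. Kmt2d stood at 22.4 CPM against 26.0 in the HSC-marker group, 20.04 against 20.7 in the granulocyte-monocyte group and 26.4 against 24.6 in the lymphoid-primed group. Its log2 ratio was -0.22, -0.05 and 0.10 in these groups, beside -0.12 in the whole library. Setd1a was higher than the control by 0.44 (0.41 to 0.55 over the alternatives) in the HSC-marker group, short of the fold. In the granulocyte-monocyte group its ratio was 0.43 (0.30 to 0.54), also short of the fold. In the lymphoid-primed group it was 0.13 (-0.18 to 0.39), with another sign under an alternative.

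The low Kmt2a of the Mll4-labelled library was not seen to the same size in each group. It stood at 168 CPM against 185 in the HSC-marker group (-0.13), 145 against 132 in the lymphoid-primed group (0.14) and 78.6 against 108 in the granulocyte-monocyte group (-0.46). With markers counted on all UMIs of a cell, which left 119 control cells in the granulocyte-monocyte group, the last value turned to 0.21. In the MPP4 gate, set in place of the lymphoid-primed group, the ratio of Kmt2a was -0.39. That gate differed in make-up. In the Mll4-labelled library 11.6% of its cells were in the lymphoid-primed and 29.0% in the granulocyte-monocyte group, against 42.6% and 3.08% in the control. Within the Mll4-labelled library itself Kmt2a was lower in the granulocyte-monocyte than in the HSC-marker group by 1.10 on the log2 scale, and that group held 37.5% of its cells against 4.29% in the control. The part of this make-up in the whole-library value was not tested.

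**Figure D3:**
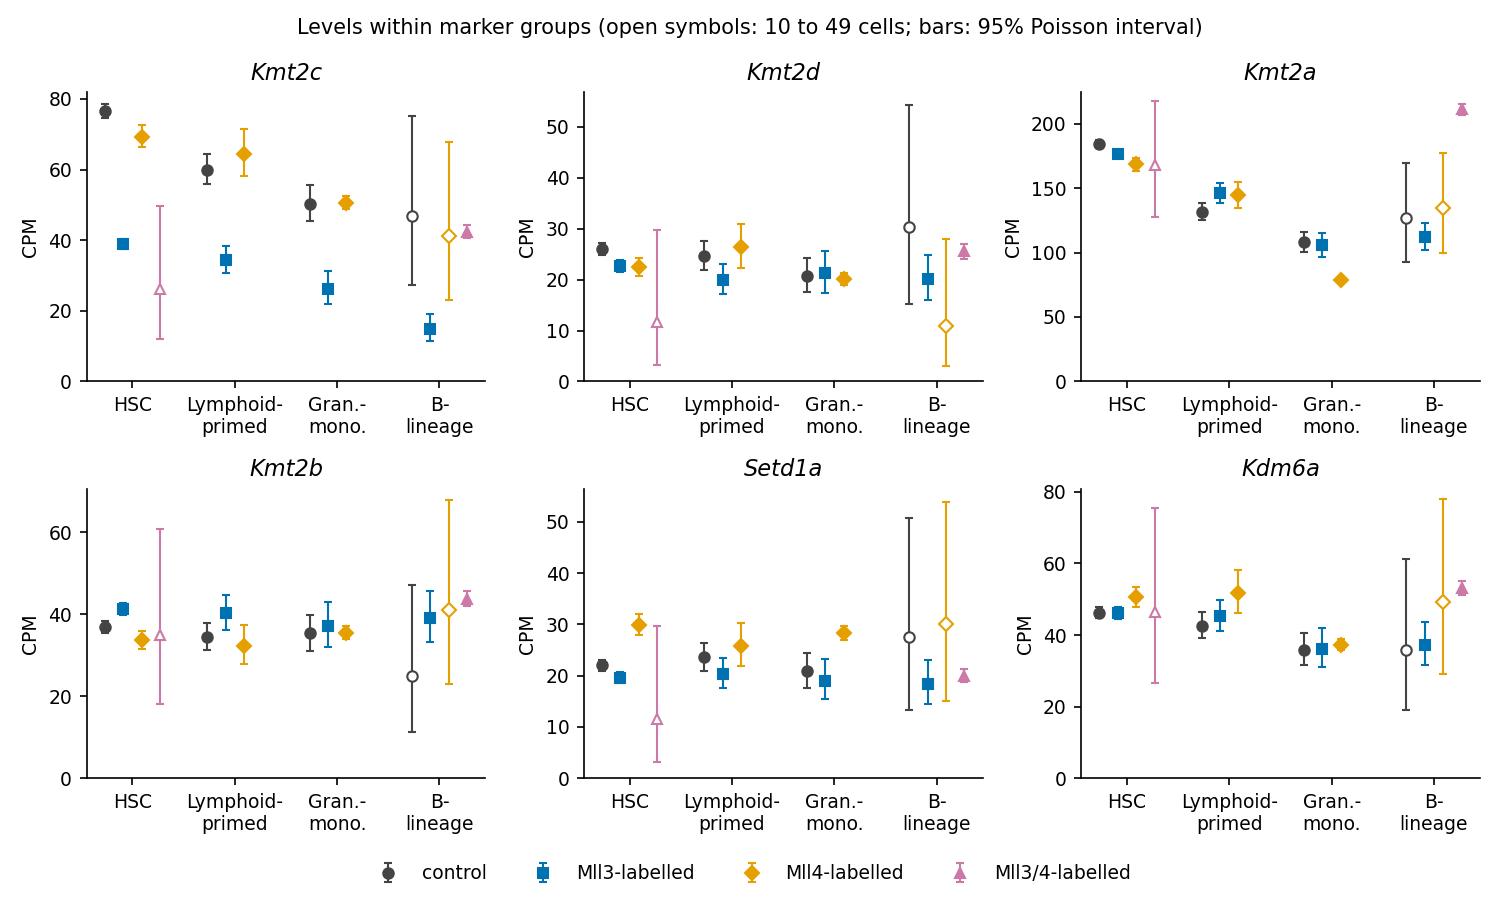
Levels in CPM (vertical axis) of 6 of the genes in 4 marker groups (horizontal axis) by library, with 95% Poisson intervals. Open symbols stand for 10 to 49 cells. Kmt2c of the Mll3-labelled library lies below the control in the HSC, lymphoid-primed and granulocyte-monocyte groups (26.3 to 38.9). In its B-lineage group Kmt2c is at 15.0, where no comparison with the control was made. Kmt2a of the Mll3/4-labelled B-lineage cells (211) lies above that of the Mll3-labelled B-lineage cells (112).

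For the Mll3/4-labelled library the control held only 17 B-lineage cells, too few to compare, and the comparison within the B-lineage group was made against 169 cells of the Mll3-labelled library. There Kmt2c stood at 42.3 CPM against 15.0 (log2 ratio 1.49, 1.14 to 1.89), Kmt2a at 211 CPM against 112 (0.91, 0.78 to 1.05) and Ncoa6 at 20.6 CPM against 11.6 (0.81, 0.41 to 1.28). These were the 3 members called higher of 8 above the minimum. Over all 6372 genes 22.1% were higher and 26.8% lower, so calls were frequent in this comparison. Kdm6a (53.1 against 37.2 CPM, 0.51), Setd1b (44.0 against 30.4 CPM, 0.53) and Kmt2d (25.5 against 20.03 CPM, 0.34) were within the fold, as were Kmt2b (43.8 against 39.1 CPM, 0.16) and Paxip1 (23.4 against 31.4 CPM, -0.43). The groups themselves differed: median UMIs per cell were 8939 against 23702, and summed B-lineage markers 14819 against 7932 CPM. Their part in the result was not tested. Within the Mll3-labelled library, the same 3 members were lower in the B-lineage than in the HSC-marker group. Kmt2c stood at 15.0 against 38.9 CPM (-1.37), Kmt2a at 112 against 177 CPM (-0.66) and Ncoa6 at 11.6 against 24.6 CPM (-1.07). Of all genes 25.7% were lower there. The part of these low levels in the ratios above was not tested.

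The 17 B-lineage cells of the control had Kmt2c at 46.9 CPM (27.3 to 75.1) and Kmt2a at 127 CPM (92.9 to 169). These are given as values only. No comparison of B-lineage cells with the control was made for either library.

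Surface antibodies gave a second way to set the Mll3/4-labelled library beside the control. They do not select the same cells in both: 96.7% of the 215 Mll3/4-labelled cells in the HSC gate (CD150+CD48-CD135-) carried B-lineage markers, against 0 of 1728 control cells, which allows a share of up to 0.174%. With that in view, Kmt2c stood at 40.2 CPM against 84.4 in the HSC gate (-1.06, -1.40 to -0.76), 37.7 against 62.5 in the MPP3 gate (CD150-CD48+CD135-, -0.73) and 39.0 against 61.9 in the MPP4 gate (CD150-CD135+, -0.67). Kmt2c was lower in the MPP1 gate as well (-1.04) and short of the fold in the MPP2 (-0.51) and CD150+CD135+ (-0.49) gates. The share of all genes lower in the HSC, MPP1, MPP3 and MPP4 gates was 20.7%, 23.4%, 20.5% and 20.2%. Kmt2c took levels between 37.7 and 48.3 CPM in the 6 gates of the Mll3/4-labelled library and between 61.9 and 84.4 CPM in those of the control. The gates are parts of 1 library each and not replicates. B-lineage cells made up 92.7% to 99.3% of the Mll3/4-labelled gates and at most 0.683% of the control gates. The part of this make-up in the levels was not tested.

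Kmt2a in the same gates was higher than the control by 0.08 in the HSC gate, 0.40 in the MPP3 gate and 0.47 in the MPP4 gate, within the fold. It passed the fold upward in the MPP2 gate (CD150+CD48+CD135-), at 267 against 160 CPM (0.74, 0.55 to 0.92) with 110 and 345 cells, where 18.1% of all genes did so.

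Against the Mll3-labelled library, 4 of 8 members of the Mll3/4-labelled library passed the fold upward in the same MPP2 gate, with 110 and 194 cells and 19.1% of all genes higher. They were Kmt2a (267 against 149 CPM, 0.85, 0.65 to 1.04), Setd1b (59.3 against 38.4 CPM, 0.63, 0.21 to 1.03), Kmt2d (35.8 against 23.3 CPM, 0.63, 0.07 to 1.14) and Kdm6a (57.6 against 38.2 CPM, 0.60, with a lower bound of 0.16). The lower bounds of the last 3 lie within the fold. In this gate 92.7% of the Mll3/4-labelled cells were in the B-lineage group, against 6.19% of the Mll3-labelled cells. The part of that make-up in these ratios was not tested. Within the B-lineage group, as given above, Kmt2a was called higher, while Setd1b, Kmt2d and Kdm6a were within the fold. In the MPP1 gate Setd1a was lower (12.4 against 21.0 CPM, -0.73, -1.49 to -0.11) on 20 UMIs, where 29.4% of genes were lower. In the other 4 gates 0 members passed the fold in this comparison.

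With the Mll3 label alone Kmt2c was lower in all 6 gates, from -1.17 in the HSC gate to -0.81 among CD150+CD135+ cells, and was the 1 member lower in each. Of all genes 3.50%, 3.28%, 4.18%, 3.36% and 3.43% were lower in the HSC, MPP1, MPP2, MPP3 and MPP4 gates and 5.40% among CD150+CD135+ cells. In the Mll4-labelled library 2 members were lower in 1 gate each, Kmt2d in the MPP1 gate (17.6 against 26.6 CPM, -0.59, -0.92 to -0.28, 11.5% of genes lower) and Paxip1 in the MPP4 gate (14.4 against 22.0 CPM, -0.61, -0.90 to -0.34, 25.2% lower). The Kmt2d value rests on 266 against 977 cells.

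Between kinds of cell within the control library, Kmt2a and Kmt2c, whose promoter windows are printed above, were the members that fell from the HSC-marker to the granulocyte-monocyte group. Kmt2a went from 185 to 108 CPM (-0.77, -0.88 to -0.67) and Kmt2c from 76.6 to 50.3 CPM (-0.60, -0.76 to -0.45), with 11.9% of 6337 genes lower. The other 7 members lay between -0.36 and 0.07. Kmt2a was called lower again in the library with the Mll3 label (-0.74, with 13.7% of genes lower) and in that with the Mll4 label (-1.10, with 16.6%), while Kmt2c there was at -0.56 and -0.45. In the lymphoid-primed group of the control Kmt2a was at -0.49 and Kmt2c at -0.35, both within the fold. Kmt2b differed from the HSC-marker group by at most 0.14 in these 2 groups over the 3 libraries.

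In the Mll4-labelled library alone 4 further groups reached 50 cells, and each was set against the HSC-marker group of that library. Against its HSC-marker group, its mast-basophil group was higher in Kdm6a (97.4 against 50.6 CPM, 0.95), Kmt2c (124 against 69.4 CPM, 0.83), Ncoa6 (0.63) and Kmt2d (0.62), 4 of 9 members where 23.8% of genes were higher. Its macrophage group was higher in Kmt2d (0.84), Setd1b (0.69) and Ncoa6 (0.61) and lower in Setd1a (-0.86) and Paxip1 (-0.64), where 27.3% of genes were higher and 38.3% lower. In its plasma or mature B group all 9 members were lower, as were 80.9% of genes, in cells whose summed plasma and mature B markers took 322624 CPM. Its T/ILC group, of 86 cells, was higher in Kdm6a (0.63), Ncoa6 (0.63) and Kmt2c (0.63) and lower in Setd1a (-0.82) and Paxip1 (-0.59, -1.66 to 0.20), where 21.3% of genes were higher and 23.3% lower. No control group of these kinds reached 50 cells, so genotype and kind of cell cannot be told apart there.

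The spread from cell to cell was read in thinned counts. In cells thinned to 3000 UMIs the variance of the count divided by its mean, which is 1 for pure counting, ranged from 0.991 (Setd1a) to 1.14 (Kmt2a) in the control, beside 36.8 for Elane, a gene of granulocyte precursors. For Kmt2c it was 1.03 in the control and 1.02, 1.18 and 1.10 with the Mll3, Mll4 and both labels. For Kmt2a it reached 1.21 with the Mll4 label and with both. Counts this sparse hold the ratio near 1, so these values do not show that the members varied little. Kmt2c had 0.219 UMIs per thinned cell in the control and 0.110 with the Mll3 label. A mixture of cells with and without the transcript could not be resolved at this depth. Such a mixture was not looked for at full depth, where the means were 1.13 and 0.613 UMIs per cell.

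The pathway around the members was read in 6 lists of 46 genes. In the Mll3-labelled library 0 of the 40 above the minimum were higher and 0 lower, beside 2.37% and 3.48% of all genes. Their median log2 ratio was 0.06 and that of all genes 0.11. In the Mll4-labelled library 0 of 41 were higher and 1 was lower, where 13.1% and 14.6% of all genes were. The 1 gene was Psip1, which encodes LEDGF, the chromatin tether of menin and Kmt2a. Psip1 stood at 144 CPM against 259 in the control (-0.85). Psip1 was close to the control in the HSC-marker group (-0.16) and lower in the granulocyte-monocyte group (-1.07, 102 against 214 CPM). Kmt2a in the granulocyte-monocyte group was at -0.46, within the fold, and turned to 0.21 with markers counted on all UMIs.

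In the Mll3/4-labelled library 5 of 40 were higher and 2 lower, with a median of 0.14 beside -0.09 for all genes. Of all genes 14.9% were higher and 21.0% lower there, so these counts do not set the lists apart, and the values that follow describe single genes. Of the shared core, Wdr5 fell to 17.5 CPM from 32.6 (-0.90), while Rbbp5 (0.02), Ash2l (-0.25) and Dpy30 (-0.33) stayed within the fold. Men1 rose from 21.6 to 42.7 CPM (0.98) and Kmt2e, an enzyme relative without known methyltransferase activity, from 131 to 201 CPM (0.62). Kdm5c, an H3K4 demethylase, rose from 30.3 to 46.3 CPM (0.61). Smarca4, the ATPase BRG1 of chromatin remodelling, rose from 129 to 341 CPM (1.41) and Ezh2, the H3K27 methyltransferase, from 164 to 254 CPM (0.63). Smyd3, a SET-domain methyltransferase, fell from 30.01 to 12.3 CPM (-1.28).

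Read against B-lineage cells of the Mll3-labelled library, these changes parted. Smarca4 and Ezh2 were high in those cells too, at 445 and 469 CPM, above the 344 and 256 CPM of the Mll3/4-labelled B-lineage cells (-0.37 and -0.88, the second called lower). Men1 stood at 43.0 against 36.2 CPM (0.25) and Smyd3 at 12.2 against 18.8 CPM, under the minimum. Wdr5 kept its low level, at 17.5 against 40.8 CPM (-1.23, -1.46 to -0.98), and Kmt2e was still higher, at 202 against 123 CPM (0.72). Kdm5c was at 46.5 against 31.6 CPM (0.55), just within the fold.

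**Figure D4:**
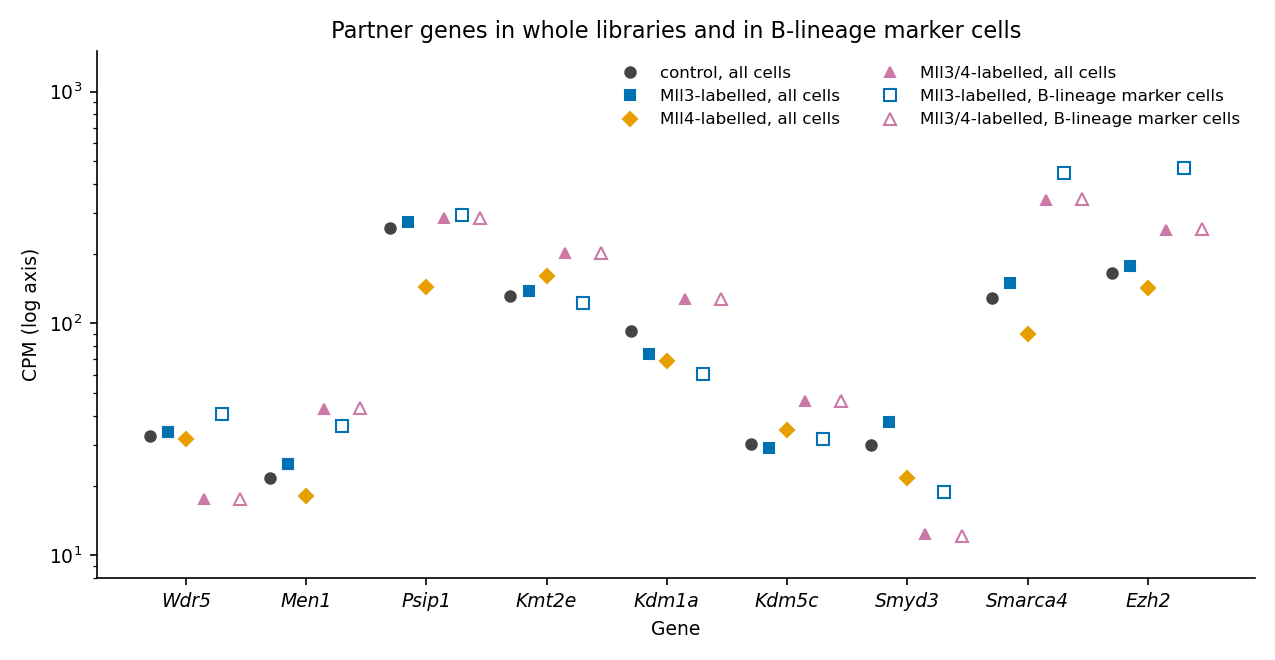
Levels in CPM (log axis) of 9 partner genes (horizontal axis) in the 4 whole libraries (filled) and in B-lineage marker cells of the 2 libraries that held enough of them (open). Wdr5 is lower in the Mll3/4-labelled sets (17.5) than in the others (31.8 to 40.8), whereas the B-lineage cells of the Mll3-labelled library exceed it in Smarca4 (445 against 344) and Ezh2 (469 against 256).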

How the data were processed

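The members and all gene lists were chosen with earlier results of these data known. Libraries were prepared with the 10x Genomics Chromium 3′ chemistry, version 3.1, per the labels' protocols. The authors deposited raw counts of UMIs and antibody tags per cell barcode. Cell Ranger 6.1.1 and the mm10 build are named in the submitters' processing notes. The filter that chose the deposited barcodes is not given in the sources used here. Groups follow the sample titles, with 1 library each.

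Kept barcodes had 1000 or more genes and no more than 10% of UMIs from mitochondrial genes. They numbered 7274 of 7682 in the control, 6101 of 6560 with the Mll3 label, 4793 of 7702 with the Mll4 label and 4748 of 5136 with both labels. Totals, in that order, were 119328763, 105907176, 120700343 and 50792614 UMIs. No doublets were removed in the main values. Scrublet's own threshold (scanpy 1.11.5) called 2, 2, 167 and 0 cells, so the caller had not worked in 3 libraries, and an alternative removed the highest scores at 0.8% of cells per 1000 cells. UMIs were summed per library or cell group with Python 3.11.15 and numpy 2.4.6. Log2 ratios had 0.5 UMIs added to both sums. Poisson intervals were exact, and intervals of ratios came from the exact conditional binomial (scipy 1.17.1). UMIs of 1 library are not replicates, so intervals cover counting error only.

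Cells were thinned to 3000 UMIs for the marker groups, which left out 14, 17, 134 and 33 shallower cells in the order above. Groups of under 50 cells entered no ratio. In the control 425 cells tied between lists and stayed ungrouped. Surface gates used centred log ratios of antibody counts with 1 threshold per antibody for all libraries, and CD135 splits a continuous signal. The named genes were the 10 members and, from each partner list and library, up to 4 genes past the fold against the control. Rbbp5, Ash2l and Dpy30, the rest of the shared core, and the genes of the closing observations were named outside that rule, after their values were seen.

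The ratio step was tested on simulated counts with 200 changed genes. Positions come from GENCODE release 21 (GRCm38), which holds 99.8% of the 32285 gene identifiers of the matrices. mm10 and GRCm38 are names of the same assembly. Alternatives were TMM scaling (edgeR 4.0.16, used for scaling only), median-of-ratios scaling, other totals, cell filters, folds, minimums, marker rules, cell weights and surface gates.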

Additional observations from a re-analysis of the deposited data

Results flagged for a closer look

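The log2 ratio of Kmt2a had opposite signs in different cells of the same library, and in each case below the difference was not tested, since no group has more than 1 library. In the Mll3-labelled library its log2 ratio to the control was 0.15 in the lymphoid-primed group and -0.06 in the HSC-marker group. In the surface gates of that library it was 0.12 in the MPP4 gate, against -0.23 in the HSC gate, -0.19 in the MPP1 gate, -0.09 in the MPP3 gate and -0.32 among CD150+CD135+ cells. In the Mll4-labelled library it was 0.14 in the lymphoid-primed group, against -0.13 in the HSC-marker group and -0.46 in the granulocyte-monocyte group. These signs did not hold under every alternative. The lymphoid-primed value turned to -0.39 with the MPP4 gate in its place. The granulocyte-monocyte value turned to 0.21 with markers counted on all UMIs. All of these values lie within the fold of 1.5. Of the Mll4-labelled cells in the MPP4 gate, 11.6% were in the lymphoid-primed group, against 42.6% in the control.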

How the results depend on the processing

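No paired analysis was possible because each genotype has 1 library and no test was run. Kmt2c was the member called lower in the Mll3-labelled library, and at a fold of 2 or a minimum of 100 CPM the number of members lower there became 0. In the Mll3/4-labelled library it also became 0 under both of these settings. Members lower in the Mll4-labelled library went from 0 to 1 (Kmt2a, at -0.59) with totals free of mitochondrial and ribosomal protein genes, and to 2 at the smallest fold tried. Members higher went from 0 to 1 at that smallest fold in the Mll3/4-labelled library against the control, and from 0 to 1 with the same fold and with median-of-ratios scaling against the Mll3-labelled library. Partner genes higher in the Mll3/4-labelled library went from 5 to 8 with median-of-ratios scaling against the control, and against the Mll3-labelled library from 5 to 9 with TMM and to 10 with median-of-ratios scaling. Those scalings moved the median of all genes by 0.11, 0.17 and 0.20 in the same order. With the MPP4 gate in place of the lymphoid-primed group, 1 member (Paxip1) in place of 0 was lower in the Mll4-labelled library. The make-up of that gate differs between the libraries, as given above. Of 594 single-gene values under an alternative, 489 moved by less than their interval or kept within it and 105 moved further. Another sign was met by 29 of 99 single-gene ratios under 1 alternative or more, of which 0 had passed the fold. Removal of doublets within marker groups was chosen after seeing the data and changed 0 of the counts past 1.5 times. The Mll3/4-labelled library, at 50792614 UMIs, has the widest intervals, and groups of under 50 cells gave no ratio.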

Other observations

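Other chromatin genes differed between the B-lineage cells of the Mll3/4-labelled library (4685 cells) and those of the Mll3-labelled library (169 cells). Of the 40 partner genes above the minimum 12 were higher and 7 lower, beside 22.1% and 26.8% of all genes. The genes named here were chosen after their values were seen. Those of this paragraph had not passed the fold over whole libraries against the control, a different reference from the Mll3-labelled cells used here. Kdm5b, an H3K4 demethylase, stood at 91.5 CPM against 17.1 (log2 ratio 2.41, 2.08 to 2.78), while over whole libraries it had 70.9 CPM in the control, 69.7 CPM with the Mll3 label, 53.9 CPM with the Mll4 label and 91.0 CPM with both. Kdm1a, which encodes the H3K4 demethylase LSD1, was at 127 against 60.8 CPM (1.06), and Setd7, a monomethyltransferase, at 56.5 against 16.9 CPM (1.73). Over whole libraries Kdm1a also passed the fold against the Mll3-labelled library, at 127 against 73.6 CPM.

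Of the list of 6 H3K27 writers and erasers, 5 were above the minimum in the same comparison, 3 of them lower and 1 higher, where 26.8% and 22.1% of all genes were. Besides Ezh2 (-0.88), Rbbp7 stood at 160 CPM against 270 (-0.75) and Suz12 at 125 against 197 CPM (-0.66), while Eed was within the fold (-0.48). Kdm6b, an H3K27 demethylase, was higher at 20.5 against 12.3 CPM (0.72), and Ezh1 was under the minimum. Depth and marker levels differ between these groups of cells, as given with the members' values, and their part in the differences was not tested.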
